A study of Mus musculus with 32 samples.

Results

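The genes described here are listed as effector genes of the visceral and parietal endoderm. Most carry out the work of these tissues rather than specify them, while Lhx1, Cited1 and Tfec are regulators. The list holds 35 genes, of the 30934 named genes in the count tables and the 15280 that were tested. The genes have known roles in visceral, parietal or early endoderm, and the list was drawn up with earlier results of these libraries known. S100g and Tfec were chosen by their measured rise in these libraries. They are therefore only described, and every count of calls is out of the other 33, of which 31 were tested. Afp and Thbd stayed below the filter on low counts and could not be tested.

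The libraries came from one line of mouse embryonic stem cells, C1, in which the endogenous β-catenin gene is knocked out. It carries a doxycycline (dox)-inducible S33Y β-catenin, fused to mCherry and to a destabilizing domain, so that the protein is kept only in trimethoprim (TMP). RNA was counted from its 3′ end in 8 groups of 4 libraries. At day 0 the groups were C1 (10 µM TMP, no dox, sorted for living cells) and C1M and C1H (100 ng/mL dox and TMP, sorted for middle and high mCherry). The methods place these cells in 2i/L, inhibitors plus LIF, whereas the growth label names serum and LIF. At day 4 of culture in NDiff227 medium on gelatin the groups were C1T (TMP, no dox), C1MV and C1HV (middle or high cells from which both inducers were withdrawn) and C1MDT and C1HDT (middle or high cells kept in dox and TMP). C1MV and C1HV differ from C1T in TMP as well as in their past induction, and these cannot be told apart. The libraries held 1366951 to 3648787 counts in genes (median 2402467). Levels are given as CPM, the counts of a gene scaled to the size of its library. Ctnnb1 stood at 7.81 ± 2.63 CPM (mean ± SD, n = 4) in C1, 12.3 ± 3.84 in C1M, 41.2 ± 5.7 in C1H and 9.74 ± 2.47 in C1T, and the 3′ counts do not tell the transgene from the locus. At day 4 it was 29.2 ± 4.29 CPM in C1MDT and 30.8 ± 3.75 in C1HDT, against 9.16 ± 2.57 in C1MV and 6.21 ± 1.84 in C1HV. The naive pluripotency factors Tfcp2l1 and Klf4 were at 1690 and 1290 CPM in C1 and at 64.5 and 40 in C1T.

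The visceral endoderm is the absorptive epithelium around the early mouse embryo and later lines the yolk sac. It takes up maternal proteins and lipids through megalin (Lrp2), cubilin (Cubn) and amnionless (Amn) with the adaptor Dab2, digests them in lysosomes, and secretes apolipoproteins and carrier proteins before the liver exists. The parietal endoderm migrates along the trophoblast and secretes a thick basement membrane, while definitive endoderm arises later from the primitive streak and forms the gut.

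Promoter sequences were available in RefSeq (build GRCm38.p6) for 27 of the 35 genes, and those of Dab2, Cubn and Cited1 are shown as examples of genes that rose in every induced group of day 4, and all 3 windows hold a match. Each sequence is the 250 bases before the annotated start, 5′ to 3′ on the strand of the gene. Capitals mark matches on either strand to GATAA, the core of sites for GATA factors, or to CTTTGNT, a core of TCF/LEF sites that overlaps with that of SOX factors. The windows are chr15:6299539-6299788 (plus strand) for Dab2, chr2:13491877-13492126 (minus strand) for Cubn and chrX:102252182-102252431 (minus strand) for Cited1.
Dab2: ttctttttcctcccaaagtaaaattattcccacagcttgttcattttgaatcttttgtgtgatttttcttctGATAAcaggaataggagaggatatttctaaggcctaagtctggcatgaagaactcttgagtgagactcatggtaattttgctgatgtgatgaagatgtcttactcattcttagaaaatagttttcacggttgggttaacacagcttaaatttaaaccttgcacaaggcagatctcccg
Cubn: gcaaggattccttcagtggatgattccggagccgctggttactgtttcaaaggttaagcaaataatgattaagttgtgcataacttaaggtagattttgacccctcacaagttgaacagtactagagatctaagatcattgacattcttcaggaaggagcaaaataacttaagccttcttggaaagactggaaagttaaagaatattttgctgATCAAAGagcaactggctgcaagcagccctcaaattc
Cited1: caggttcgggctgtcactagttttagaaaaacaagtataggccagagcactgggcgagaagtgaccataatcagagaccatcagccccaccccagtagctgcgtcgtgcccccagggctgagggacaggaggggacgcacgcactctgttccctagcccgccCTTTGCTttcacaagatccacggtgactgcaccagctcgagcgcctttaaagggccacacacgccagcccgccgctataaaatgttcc
Without S100g and Tfec, GATAA was present in the windows of 7 of 25 genes (28%), against 23% of all 27025 windows. CTTTGNT was present in 6 of the 25 (24%), against 16.1%, and TGTTTAC, a core of FOX sites, in 1 (4%), against 3.09%. The windows of Amn, Ctsl, Srgn, Pth1r, Ihh, Slc39a8 and Cldn6, which also rose in every induced group of day 4, held none of the 3 motifs. A match only describes the letters in a window.

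Most of the list rose at day 4 in cells that had been induced. Against C1T, the edgeR quasi-likelihood test at an adjusted p under 0.05 called 20 of the 33 genes higher and 0 lower in C1MV, 19 higher and 6 lower in C1MDT, 20 higher and 0 lower in C1HV, and 20 higher and 6 lower in C1HDT. Of all 15280 genes tested, 30.2%, 33.4%, 28% and 33.5% were called in these comparisons, with 15.3%, 16.9%, 13.7% and 17.4% higher and 14.9%, 16.5%, 14.3% and 16.1% lower. The median log2 fold change over the 31 tested genes was 1.81, 2.14, 1.78 and 2.14, and over all tested genes 0.01, -0.01, 0.00 and 0.00. Genes at the detection floor (3 counts in a library, averaged over the libraries of a group) have no measured fold, and with these held at the fold the floor allows the medians of the list were 1.60, 2.10, 1.70 and 1.77. The 4 comparisons share the C1T libraries. In all 4 of them 18 genes were called higher, and for 17 of these every library of each induced group lay above every C1T library, Plat being the exception. Of all genes tested, 8.19% were called higher in all 4 comparisons, and 5.6% also had no overlap with C1T. In bulk libraries, more cells of a type and more RNA per cell cannot be told apart.

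**Figure D1:**
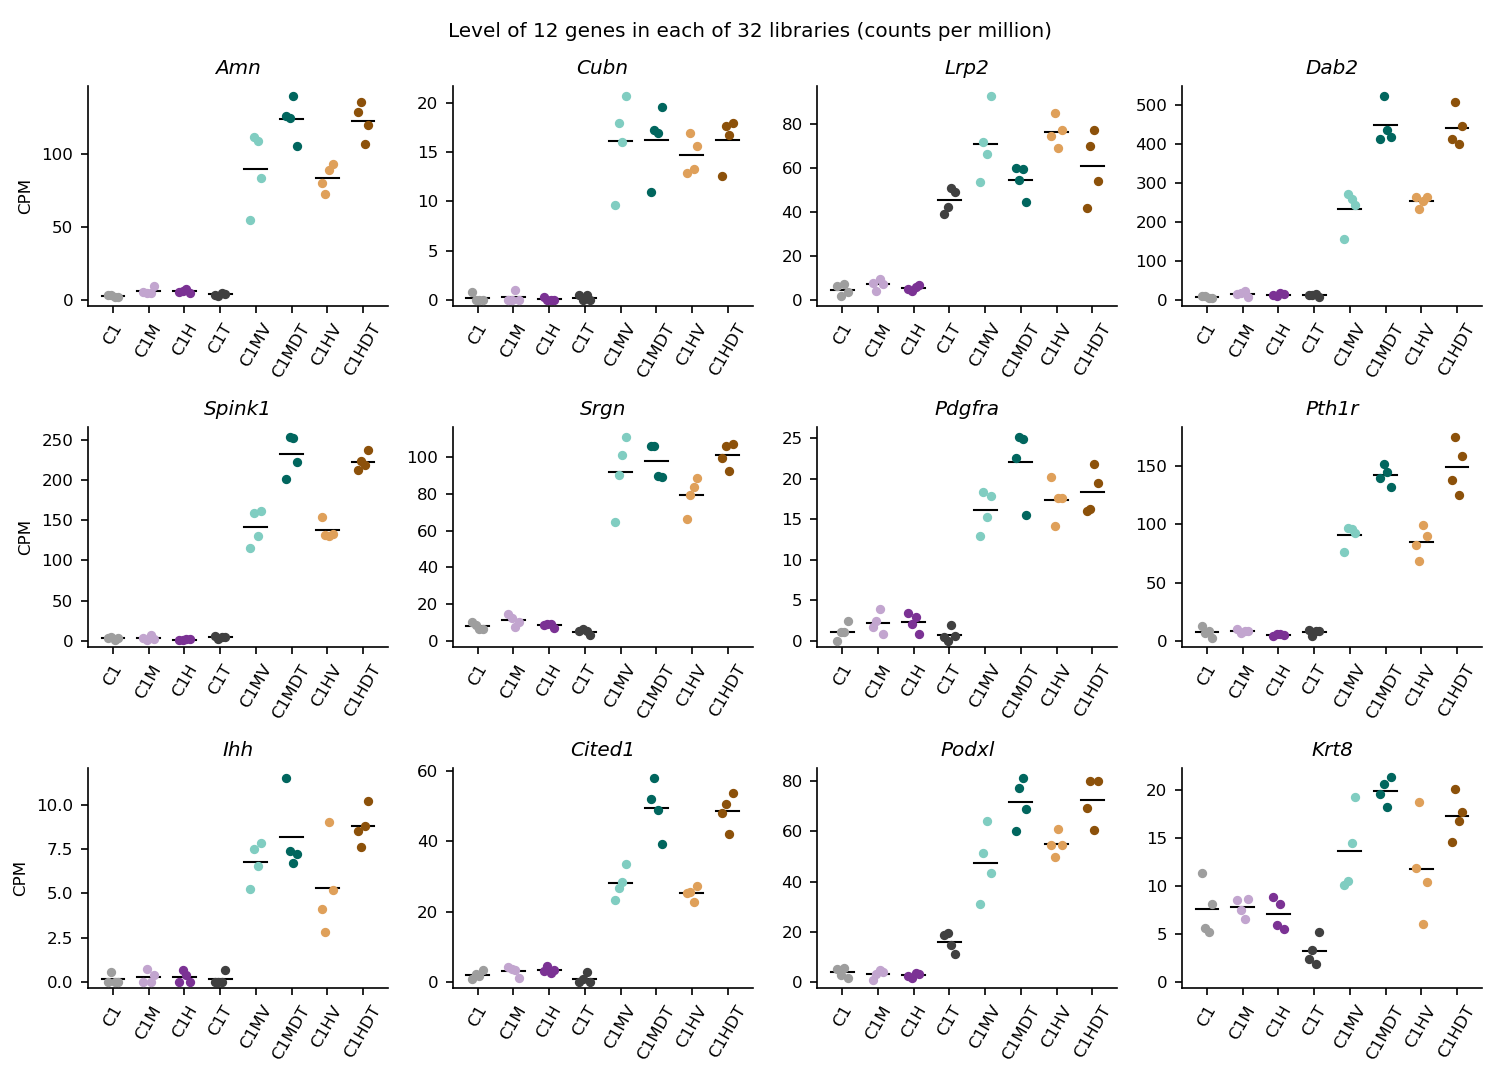
Levels (CPM, linear axes) of 12 of the genes in each of the 32 libraries, by group, with 1 point a library and a line at the group mean. For Dab2, Spink1, Pth1r and Cited1 the constant groups (C1MDT, C1HDT) lie above the withdrawn groups (C1MV, C1HV), and these above C1T, whereas the 4 induced groups overlap for Cubn.

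Of the 4 genes of the receptor complex and its adaptor, 4 rose in C1MV, C1HV and C1HDT and 3 in C1MDT. Dab2, the clathrin adaptor that brings megalin and its cargo into the cell, stood at 12, 11.7, 14.8 and 6.53 CPM in the 4 libraries of C1T. With withdrawn inducers it stood at 156, 273, 260 and 243 CPM in C1MV and 263, 234, 253 and 264 in C1HV, and with constant inducers at 414, 523, 437 and 418 in C1MDT and 414, 508, 401 and 445 in C1HDT. All 16 induced libraries of day 4 were above all C1T libraries, and all 8 with constant inducers were above all 8 with withdrawn inducers. The log2 fold change of Dab2 against C1T was 4.33 ± 0.22 (SE) in C1MV and 4.45 ± 0.22 in C1HV, and 5.27 ± 0.21 in C1MDT and 5.25 ± 0.21 in C1HDT (adjusted p from 3.1e-17 to 7.6e-15).

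Amn, the membrane anchor of cubilin, had 3.36, 2.91, 4.77 and 3.92 CPM in C1T. It had 54.8, 112, 109 and 83.5 CPM in C1MV and 80.1, 72.7, 89.1 and 93 in C1HV, and 126, 125, 140 and 106 in C1MDT and 129, 136, 107 and 120 in C1HDT. Even the lowest induced library, in C1MV, was far above the highest C1T library. The log2 fold changes of Amn ran from 4.48 ± 0.22 in C1HV to 5.05 ± 0.21 in C1MDT (adjusted p from 4.5e-37 to 3.2e-31).

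Cubn, the receptor that binds vitamin-carrier complexes and albumin, had at most 3 counts in each of the 16 libraries of C1, C1M, C1H and C1T. It reached 9.68, 18, 16 and 20.7 CPM in C1MV and 12.9, 17, 13.3 and 15.6 in C1HV, and 11, 17.3, 17 and 19.6 in C1MDT and 12.6, 17.7, 16.8 and 18 in C1HDT. No induced library overlapped C1T, and the 4 induced groups overlapped one another. Against the floor in C1T (1.52 CPM), Cubn was at least 10.6-fold higher in C1MV and 9.68-fold in C1HV, and 10.7-fold in C1MDT and 10.7-fold in C1HDT (adjusted p from 1.5e-19 to 3.6e-17). Cubn, Dab2, Apoa4, Apoh, Afp, Ctsl, Gpc3, Pdgfra, Pth1r, S100g, Slc39a8 and Krt8 each overlap another gene model on the opposite strand, and whether reads were assigned by strand is not stated, so their counts could hold reads of those models.

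Lrp2 (megalin), the large scavenger receptor of this complex, had already risen without dox. Its mean level was 4.65 ± 2.58 CPM in C1 and 45.2 ± 5.71 in C1T, a log2 fold change of 3.22 ± 0.25 (adjusted p = 1.1e-18). Against C1T it was higher by 0.63 ± 0.15 in C1MV, 0.76 ± 0.16 in C1HV and 0.42 ± 0.15 in C1HDT on the log2 scale (adjusted p = 7.7e-04, 6.2e-05 and 0.0279), and the 0.28 ± 0.16 in C1MDT did not pass (adjusted p = 0.176). The call in C1HDT was lost with DESeq2 (adjusted p = 0.0563) and without C1T replicate 1, C1T replicate 2, C1HDT replicate 2 or C1HDT replicate 3 (adjusted p = 0.118, 0.0693, 0.0898 and 0.165).

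**Figure D2:**
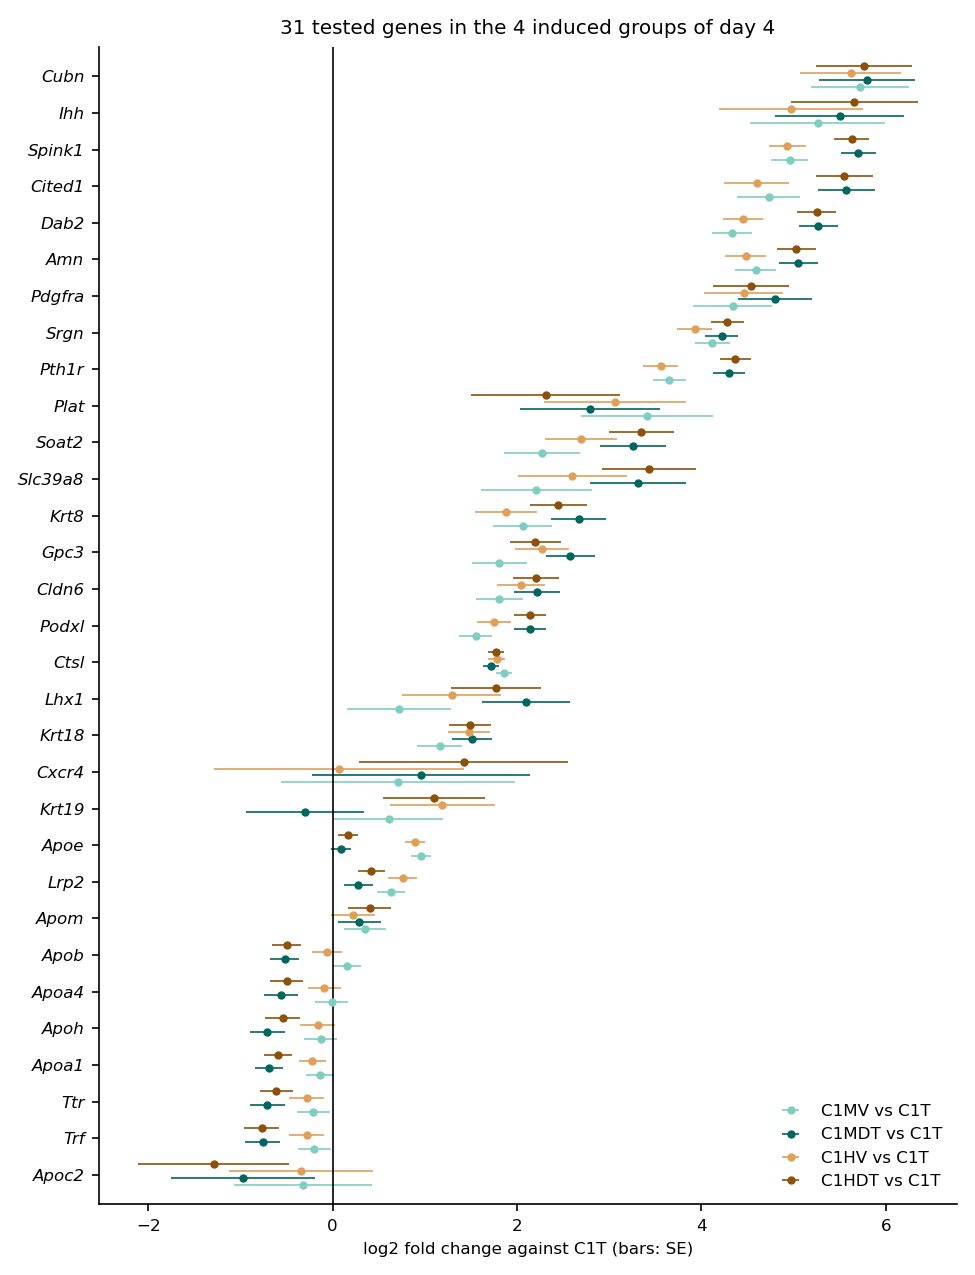
Log2 fold change against C1T (horizontal axis, bars 1 SE) of the 31 tested genes in the 4 induced groups of day 4, which share the C1T libraries. Most genes lie to the right of 0, and Apoa1, Apoa4, Apob, Apoh, Ttr and Trf to the left in C1MDT and C1HDT; values of genes at the floor in C1T, such as Cubn and Ihh, depend on the prior count.

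Of the proteases, protease inhibitors and proteoglycans, 5 of the 5 that could be tested rose in each induced group. Spink1, a secreted trypsin inhibitor, had 5.76, 2.5, 5.24 and 4.57 CPM in C1T. With withdrawn inducers it had 115, 159, 130 and 161 CPM in C1MV and 154, 132, 130 and 133 in C1HV, and with constant inducers 201, 253, 252 and 222 in C1MDT and 212, 223, 219 and 237 in C1HDT. As for Dab2, the induced libraries did not overlap C1T, and the constant did not overlap the withdrawn libraries. The log2 fold change of Spink1 against C1T was 4.96 ± 0.20 in C1MV and 5.70 ± 0.19 in C1MDT (adjusted p = 4.8e-32 and 5.8e-37).

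Ctsl, the lysosomal protease cathepsin L, had fallen from 129 ± 12.4 CPM in C1 to 72.6 ± 1.87 in C1T, and stood at 264 ± 23.8 in C1MV, 249 ± 13.3 in C1HV, 243, 238, 254 and 222 in the 4 libraries of C1MDT and 248 ± 6.23 in C1HDT. Srgn, the core protein of a proteoglycan of secretory granules, rose from 5.01 ± 1.25 CPM in C1T to 91.6 ± 19.6, 97.6 ± 9.34, 79.4 ± 9.57 and 101 ± 6.94 in C1MV, C1MDT, C1HV and C1HDT. Its log2 fold changes lay between 3.93 ± 0.19 and 4.28 ± 0.18 (adjusted p from 3.9e-48 to 2.0e-41). All libraries of the 4 induced groups lay above C1T for both genes.

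Gpc3, a cell-surface heparan sulphate proteoglycan, was at 4.42 ± 1.83 CPM in C1T and rose to 14.4 ± 3.5, 25.4 ± 0.975, 20.8 ± 4.33 and 19.2 ± 5.16 in C1MV, C1MDT, C1HV and C1HDT, with log2 fold changes of 1.81 ± 0.30 to 2.58 ± 0.27. Plat, the secreted tissue plasminogen activator known from parietal endoderm, had at most 2 counts in each C1T library and stood at 4.74 ± 2.41, 2.64 ± 1.45, 3.47 ± 2.36 and 2.03 ± 0.943 CPM in C1MV, C1MDT, C1HV and C1HDT. It was called higher in all 4, by at least 3.12-fold in C1MV and 1.34-fold in C1HDT, but C1MDT replicate 1 and C1HV replicate 1 held a single count each. The call of Plat in C1HDT was lost without C1T replicate 3 or 4 or C1HDT replicate 1 or 3 (adjusted p from 0.0513 to 0.0758). Thbd, the thrombin receptor of parietal endoderm and vessels, had 0 to 2 counts in every library.

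Of the 4 receptors and ligands, 3 rose in every induced group. Pth1r, the receptor for parathyroid hormone-related protein, which acts in parietal endoderm, had 9.12, 3.75, 8.1 and 8.49 CPM in C1T. It had 76.2, 97, 96.3 and 92.8 CPM in C1MV and 82.2, 68.2, 99.4 and 89.8 in C1HV, and 140, 152, 145 and 132 in C1MDT and 138, 175, 125 and 159 in C1HDT. No induced library overlapped C1T, and no constant library overlapped a withdrawn one. The log2 fold change of Pth1r against C1T was 3.65 ± 0.18 in C1MV and 4.30 ± 0.17 in C1MDT (adjusted p = 8.5e-36 and 3.9e-44).

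Pdgfra, a growth factor receptor that marks primitive endoderm, had 0.48, 0, 1.91 and 0.653 CPM in C1T and means of 16.1 ± 2.52, 22 ± 4.48, 17.4 ± 2.44 and 18.4 ± 2.77 in C1MV, C1MDT, C1HV and C1HDT (adjusted p from 1.7e-21 to 7.8e-17). Ihh, the hedgehog ligand secreted by visceral endoderm, had at most 2 counts in each of the 16 libraries of C1, C1M, C1H and C1T. It stood at 6.78 ± 1.16, 8.21 ± 2.24, 5.3 ± 2.67 and 8.79 ± 1.07 CPM in C1MV, C1MDT, C1HV and C1HDT, at least 4.47-, 5.41-, 3.49- and 5.79-fold higher than the floor in C1T (adjusted p from 2.5e-12 to 3.8e-08). Shh, the hedgehog ligand of definitive endoderm derivatives and the neural floor plate, had at most 2 counts in every library. Cxcr4, a chemokine receptor used to sort definitive endoderm, was called in none of the 4 comparisons with C1T, with group means of 0.237 to 0.681 CPM in the induced groups. The highest group mean of Cxcr4 was in C1H at day 0, at 2.17 ± 1.56 CPM.

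Of the nuclear factors, Cited1, a transcriptional co-activator expressed in visceral endoderm, had 0, 0.833, 2.86 and 0 CPM in C1T. It had 23.4, 26.6, 28.4 and 33.5 CPM in C1MV and 25.3, 25.6, 22.8 and 27.3 in C1HV, and 51.9, 57.9, 48.9 and 39.2 in C1MDT and 48, 50.6, 41.9 and 53.8 in C1HDT. The libraries fell into 3 separate ranges, C1T lowest, withdrawn groups between and constant groups highest. The log2 fold changes of Cited1 against C1T were 4.73 ± 0.34, 5.57 ± 0.31, 4.60 ± 0.35 and 5.55 ± 0.31 in C1MV, C1MDT, C1HV and C1HDT (adjusted p from 6.1e-37 to 6.1e-24). Its counts in C1T were 0, 2, 6 and 0, with a mean of 0.923 CPM, below the floor of 1.52 CPM. The size of these folds therefore depends on the prior count.

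Lhx1, a homeobox factor of the anterior visceral endoderm and of mesendoderm, passed the test against C1T in the constant groups, at 7.57 ± 2.3 CPM in C1MDT and 5.98 ± 2.92 in C1HDT against 1.67 ± 0.682 in C1T (adjusted p = 1.6e-04 and 0.00233). In C1MV and C1HV its means were 2.7 ± 1.59 and 4.35 ± 1.87 CPM (adjusted p = 0.366 and 0.0659). Over both fractions Lhx1 was higher in constant than in withdrawn inducers by 0.93 ± 0.30 on the log2 scale (adjusted p = 0.0121), which was lost without C1HDT replicate 4 (0.056).

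Slc39a8, a zinc and manganese importer, was at the floor in C1T and rose in all 4 groups, by at least 2.37-fold in C1MV and 3.14-fold in C1HV, and 5.19-fold in C1MDT and 5.59-fold in C1HDT. S100g, a calcium-binding protein of absorptive epithelia, and Tfec, a factor of the MiT family, are given as levels only. S100g had at most 2 counts in each library of C1, C1M, C1H and C1T, and 8.47, 15.7, 14.2 and 17.1 CPM in C1MV and 18.1, 11.4, 18.1 and 13.7 in C1HV, and 13.8, 16.6, 15.6 and 15.5 in C1MDT and 12.9, 16.7, 15.5 and 13.6 in C1HDT. Tfec had at most 1 count in each library of the first 4 groups and group means of 3.69 ± 1.86, 5.84 ± 2.68, 5.78 ± 2.16 and 6.22 ± 1.32 CPM in C1MV, C1MDT, C1HV and C1HDT. For both genes the 4 induced groups overlapped one another.

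Of the 5 epithelial structure genes, 4 were called higher in every induced group. Podxl (podocalyxin, of the apical surface) and Cldn6 (claudin 6, of tight junctions) had risen without dox, from 3.75 ± 1.97 to 16 ± 3.9 CPM and from 1.38 ± 1.16 to 8.48 ± 4.45 CPM between C1 and C1T (adjusted p = 3.3e-09 and 1.2e-05). Podxl then stood at 47.6 ± 14, 71.9 ± 9.48, 55.1 ± 4.55 and 72.6 ± 9.39 CPM in C1MV, C1MDT, C1HV and C1HDT, and Cldn6 at 30.1 ± 11, 39.1 ± 4.26, 34.1 ± 5.68 and 38.5 ± 2.19 CPM. The keratins Krt8 and Krt18, the intermediate filament pair of simple epithelia, were higher than in C1T by 1.88 ± 0.34 to 2.67 ± 0.30 and by 1.16 ± 0.24 to 1.51 ± 0.22 on the log2 scale. Krt8 was at 7.58 ± 2.82 CPM in undifferentiated C1 and had fallen to 3.22 ± 1.46 in C1T. Krt19, another keratin of simple epithelia, was called in none of the 4 comparisons, with a highest group mean of 3.64 ± 0.926 CPM in C1HV.

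The apolipoproteins and carrier proteins took another course. Soat2, which esterifies cholesterol for lipoprotein export, rose in all 4 groups, from 1.75 ± 1.1 CPM in C1T to 8.65 ± 1.12, 16.9 ± 3.85, 11.3 ± 4.11 and 18.2 ± 3.74 in C1MV, C1MDT, C1HV and C1HDT (log2 fold change from 2.27 ± 0.41 to 3.35 ± 0.35, adjusted p from 2.8e-15 to 1.3e-06). Apom, a carrier of sphingosine phosphate, and Apoc2, the activator of lipoprotein lipase, were called in none of the 4 comparisons in the fit without a hepatocyte term, and the group means of Apoc2 were 0.387 to 1.53 CPM.

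Apoe, the ligand for lipoprotein uptake that many cells make, had 1230, 1250, 1130 and 1630 CPM in C1T, 2530, 2170, 2460 and 3010 in C1MV and 2370, 2400, 2470 and 2450 in C1HV. It had 1400, 1620, 1110 and 1430 CPM in C1MDT and 1550, 1520, 1420 and 1390 in C1HDT. The withdrawn groups lay wholly above C1T and above the constant groups, and the constant groups overlapped C1T. The log2 fold change of Apoe against C1T was 0.96 ± 0.11 in C1MV and 0.89 ± 0.11 in C1HV (adjusted p = 3.7e-08 and 1.6e-07), and 0.09 ± 0.11 and 0.17 ± 0.11 in C1MDT and C1HDT (adjusted p = 0.59 and 0.254). In undifferentiated C1, Apoe was at 2320 ± 124 CPM.

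The 6 genes called lower in C1MDT and C1HDT than in C1T were Apoa1, Apoa4, Apob and Apoh (protein components of lipoproteins), Ttr (the thyroid hormone and retinol carrier) and Trf (the iron carrier transferrin). Apoa1 had 697, 600, 584 and 967 CPM in C1T, 490, 460, 359 and 456 in C1MDT and 569, 464, 413 and 430 in C1HDT, and 535, 704, 608 and 584 in undifferentiated C1. Ttr had 158, 189, 169 and 327 CPM in C1T, 150, 121, 117 and 127 in C1MDT and 173, 134, 113 and 123 in C1HDT, and 152, 197, 153 and 158 in C1. For each gene the highest of the libraries given was C1T replicate 4, and the libraries of C1 overlapped those of C1T. The log2 fold change of Apoa1 against C1T was -0.69 ± 0.15 in C1MDT and -0.59 ± 0.15 in C1HDT (adjusted p = 9.4e-04 and 0.00351), and those of the other 5 lay between -0.77 ± 0.19 and -0.50 ± 0.16. Without C1T replicate 4, Apoa4 and Apob passed in neither constant group (adjusted p from 0.0985 to 0.184), and Apoh and Ttr not in C1HDT (0.148 and 0.104). The call of Apoa4 in C1MDT was also lost without C1MDT replicate 2 or 3. In C1HDT, calls were also lost without C1HDT replicate 2, 3 or 4 for Apoa4, 3 for Apob and 3 or 4 for Apoh. In these fits the adjusted p ran from 0.0517 to 0.106. With only the groups compared in the fit, Apoa4 and Ttr passed in neither, Trf not in C1MDT and Apoa1 not in C1HDT (adjusted p from 0.0574 to 0.14).

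Genes of adult liver moved with these 6. A list of 20 adult hepatocyte genes, among them Alb (albumin), Hamp (hepcidin), Mup3 (a major urinary protein) and Cyp2e1 (a drug-metabolising enzyme), was chosen after the values were seen. Each library held 3456 to 7773 counts of these genes, undifferentiated C1 included, and 19 or 20 of the 20 were above the floor in all libraries of each group. Their summed level was 2490 ± 338 CPM in C1, 1620 ± 180 in C1M, 1650 ± 297 in C1H, 2920 ± 789 in C1T, 2640 ± 238 in C1MV and 2560 ± 422 in C1HV, and 1770 ± 220 in C1MDT and 1880 ± 270 in C1HDT, with the highest value, 4060 CPM, in C1T replicate 4. Of the 20 genes, 19 were lower in C1MDT than in C1T and 18 in C1HDT, and 1 each in C1MV and C1HV.

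**Figure D3:**
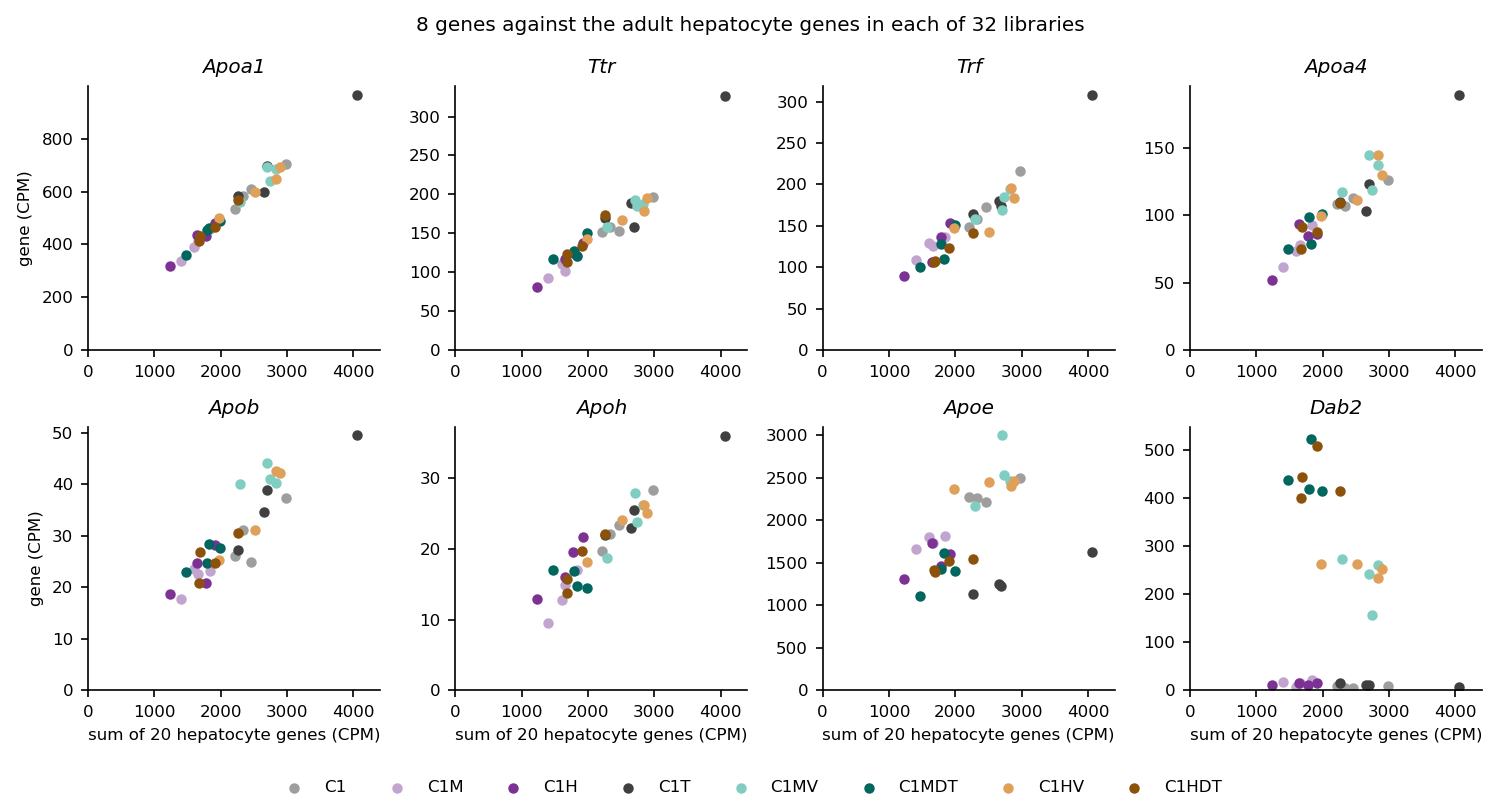
Level of 8 genes (vertical axes, CPM) against the summed level of 20 adult hepatocyte genes (horizontal axes, CPM) in each of the 32 libraries, coloured by group. Apoa1, Ttr, Trf, Apoa4, Apob and Apoh lie near a line in every group, C1T replicate 4 at its upper end, while Apoe and Dab2 separate by group.

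The ratio of each of the 6 genes to this sum varied little over the 32 libraries, least for Apoa1. Apoa1 was 24.6% of the sum on average, with a range of 22.7% to 26.5% and a coefficient of variation of 3.59%, where counting error alone would give 3.24%. For Ttr, Trf, Apoa4, Apoh and Apob the coefficients of variation were 7.11%, 8.62%, 8.64%, 11.3% and 11.4%, where counting error alone would give 5.69%, 5.68%, 6.79%, 15.2% and 12.5%. For their size the widest ranges were those of Apoh, 0.685% to 1.16%, and Apob, 1.01% to 1.75%. The coefficient of variation of the Apoe ratio was 23.5%, and that of Amn 107%. Between the groups with the lowest and the highest ratio, the ratio of Apoa1 differed 1.06-fold, that of Apoe 2.37-fold and that of Amn 66-fold. Afp (α-fetoprotein), the carrier protein that both the yolk sac and the fetal liver make, had 0 to 2 counts in every library. Whether the RNA of the 6 genes and of the 20 hepatocyte genes came from the cultured cells was not tested, so their levels, those in undifferentiated C1 included, describe the libraries.

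With the summed level of the 20 genes as a term of the fit, an alternative added after seeing the data, none of the 6 genes was called lower than in C1T in C1MDT or C1HDT. The ratio of the 6 genes to this sum varied little, so the term nearly fixed this outcome and it tests nothing about them. The log2 fold change of Apoa1 was then -0.03 ± 0.09 in C1MDT and -0.02 ± 0.08 in C1HDT (adjusted p = 0.864 and 0.881). In the same fit Dab2 was higher by 5.17 ± 0.28 and 5.16 ± 0.26 on the log2 scale (adjusted p = 1.0e-13 and 2.3e-14), and Apoe by 0.42 ± 0.09 and 0.46 ± 0.08 (adjusted p = 6.2e-05 and 2.6e-06). Apom went from 0.29 ± 0.23 to 0.96 ± 0.30 in C1MDT and from 0.40 ± 0.23 to 0.97 ± 0.28 in C1HDT, and was then called higher in both (adjusted p = 0.0119 and 0.00472). Lhx1, at 1.01 ± 0.65 and 0.82 ± 0.62 (adjusted p = 0.308 and 0.384), and Lrp2 in C1HDT, at 0.30 ± 0.20 (0.313), were then not called. Without the 6 genes, 20, 19, 20 and 20 of the other 27 were called higher in C1MV, C1MDT, C1HV and C1HDT. That 0 were then lower follows from leaving out the only genes called lower.

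Of 16 further genes of visceral endoderm, 6 were higher and 8 lower in C1MDT than in C1T, 6 and 7 in C1HDT, and 4 and 0 in both C1MV and C1HV. These counts stand beside 16.9% higher and 16.5% lower of all genes in C1MDT and 17.4% and 16.1% in C1HDT. The 7 lower in both were Apoa2, Apoc3, Rbp4, Fabp1, Fga, Fgb and Fgg, whose ratios to the hepatocyte sum had coefficients of variation from 7.27% for Apoa2 to 17.3% for Fgg, where counting error alone would give 4.85% and 15.2%. Apoc1, lower in C1MDT only, had a coefficient of 33%. Among those higher, named after their values were seen, the lysosomal protease Lgmn was at 45.5 ± 4.91 CPM in C1MDT against 3.46 ± 1.63 in C1T, and the membrane protease Tmprss2 at 17.8 ± 1.47 CPM against at most 1 count in each C1T library.

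Constant inducers were compared with withdrawn inducers. The constant groups were still in dox and TMP at collection. The length of induction and the presence of the drugs therefore cannot be told apart. Over both sorted fractions 11 of the 33 genes were higher and 8 lower with constant inducers, against 24.8% of all genes called (13.3% higher and 11.5% lower). In the middle fraction (C1MDT against C1MV) 10 were higher and 5 lower, against 12.6% (6.64% and 5.95%), and in the high fraction (C1HDT against C1HV) 7 and 2, against 16% (9.1% and 6.88%). With only the groups compared in the fit, 15 genes were called in the high fraction in place of 9. The 11 higher genes were Dab2, Amn, Spink1, Pth1r, Cited1, Soat2, Slc39a8, Podxl, Krt8, Lhx1 and Srgn.

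Pth1r rose by 0.73 ± 0.08, Cited1 by 0.90 ± 0.12, Dab2 by 0.87 ± 0.10, Spink1 by 0.72 ± 0.08 and Amn by 0.51 ± 0.08 on the log2 scale (adjusted p = 2.2e-13, 9.2e-11, 9.8e-08, 6.9e-12 and 1.2e-06). For Pth1r, Cited1, Dab2 and Spink1 all 8 constant libraries lay above all 8 withdrawn ones, and for Amn the ranges overlapped. The share of all genes that separate in this way was not counted, so how unusual this is cannot be said. These 5 and Slc39a8 were also called with the hepatocyte sum in the fit. Soat2 then went from 0.83 ± 0.18 to 0.43 ± 0.27 (adjusted p = 0.367) and Lhx1 from 0.93 ± 0.30 to 0.07 ± 0.53 (0.972). Krt8 went from 0.59 ± 0.16 to 0.56 ± 0.24 (adjusted p = 0.126), Podxl from 0.49 ± 0.10 to 0.38 ± 0.16 (0.125) and Srgn from 0.23 ± 0.08 to 0.31 ± 0.13 (0.124). The values of Krt8, Podxl and Srgn moved by less than their SE in that fit, and this SE was larger, so the lost calls do not show that these differences go with the hepatocyte sum. Srgn, at 0.23 ± 0.08 (adjusted p = 0.0257), was also not called under DESeq2 or library-size scaling (0.084 and 0.064) or when any one of 6 libraries was left out: replicate 1 of C1MV, C1HV or C1MDT, replicate 2 of C1MDT or C1HDT, or replicate 4 of C1HDT (0.0526 to 0.185).

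Other genes that had risen against C1T did not pass the test of constant against withdrawn inducers. Cubn differed by 0.11 ± 0.17 on the log2 scale between constant and withdrawn inducers (adjusted p = 0.701), Ctsl by -0.07 ± 0.05 (0.365), Pdgfra by 0.27 ± 0.16 (0.222), Ihh by 0.46 ± 0.24 (0.15) and Cldn6 by 0.29 ± 0.14 (0.125). The 8 lower genes were Apoe (-0.80 ± 0.08, adjusted p = 2.6e-09), Lrp2 (-0.35 ± 0.10, adjusted p = 0.00725) and the 6 that follow the hepatocyte genes, of which 18 of 20 were also lower. With the hepatocyte sum in the fit Apoe was still lower, at -0.56 ± 0.06 (adjusted p = 5.2e-13), as was Lrp2, at -0.45 ± 0.15 (0.04). None of the 6 was called, an outcome that their near-fixed ratio to the sum nearly set in advance. With withdrawn inducers the means still lay far above C1T, at 233 and 253 CPM for Dab2, 89.6 and 83.7 for Amn, and 141 and 137 for Spink1 in C1MV and C1HV.

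**Figure D4:**
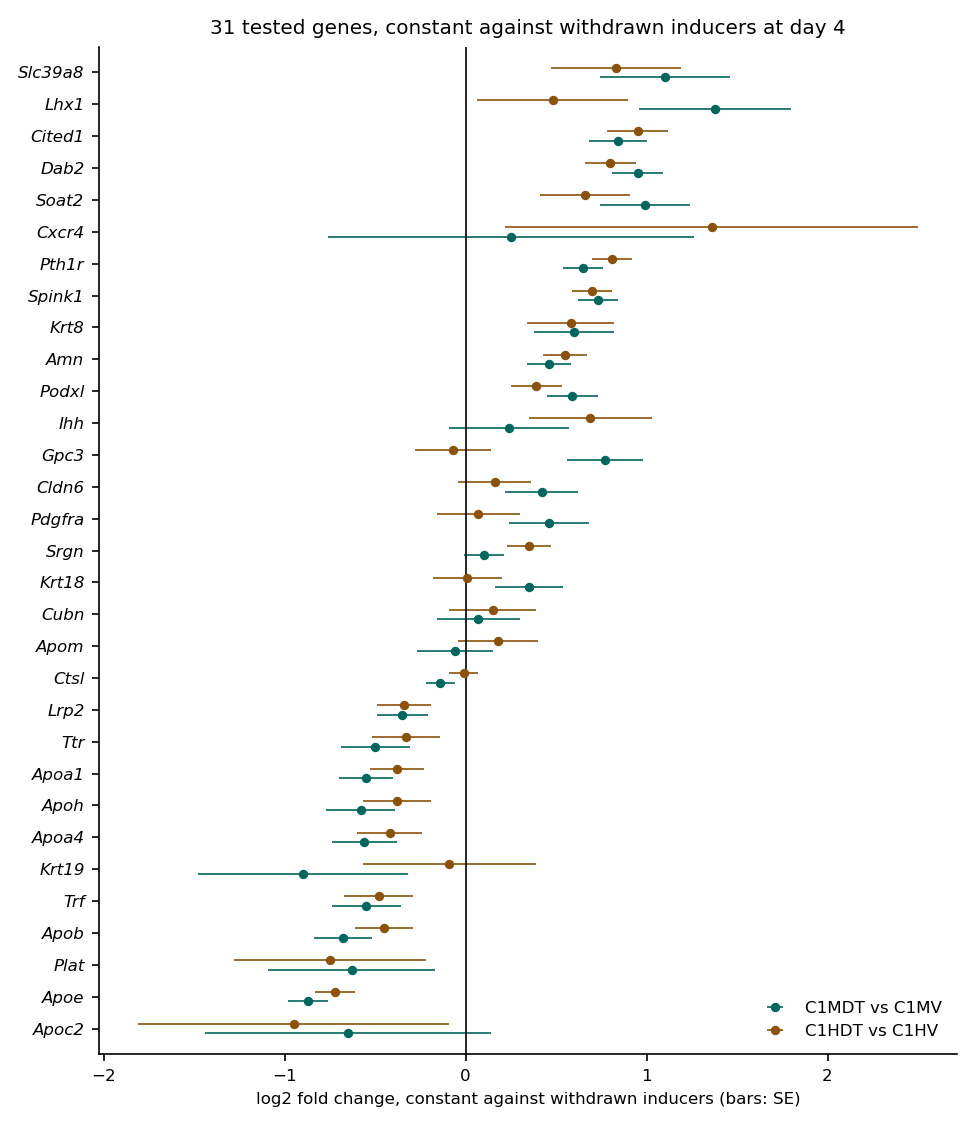
Log2 fold change of constant against withdrawn inducers (horizontal axis, bars 1 SE) for the 31 tested genes in the middle (C1MDT against C1MV) and high (C1HDT against C1HV) fractions. Dab2, Cited1, Pth1r, Spink1 and Amn lie to the right of 0 in both fractions, and Apoe to the left, at -0.87 and -0.72.

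No difference between the sorted fractions was called for these genes in the fit of all groups. Between C1H and C1M at day 0, between C1HV and C1MV, and between C1HDT and C1MDT, edgeR called 0 of the 33 genes, against 1.77% (0.713% higher and 1.06% lower), 0.00654% and 0% of all genes, and DESeq2 called 0 as well. Between C1H and C1M, Apoe was called lower with only the groups compared in the fit (-0.19 ± 0.05, adjusted p = 0.0248), and Spink1 without C1M replicate 2 (-1.56 ± 0.42, adjusted p = 0.0446). At an unadjusted p under 0.05 there were 3, 1 and 1 genes by edgeR and 4, 1 and 1 by DESeq2. Intervals of 2 SE show what could have been missed. At day 0, where the log2 fold change of Ctnnb1 between C1H and C1M was 1.76 ± 0.18, the difference was -0.27 (-0.86 to 0.32) for Dab2, 0.01 (-0.58 to 0.59) for Amn, -0.70 (-1.24 to -0.17) for Pth1r and -1.21 (-2.15 to -0.27) for Spink1. The last pair had an unadjusted p of 0.00969 and 0.0124 but did not pass after adjustment (0.192 and 0.217). At day 4 the fractions did not differ in Ctnnb1 at an adjusted p under 0.05 (0.75 for C1HV against C1MV and 0.992 for C1HDT against C1MDT). The log2 difference for Dab2 was 0.12 (-0.17 to 0.41) between C1HV and C1MV and -0.02 (-0.29 to 0.24) between C1HDT and C1MDT. For Amn the same differences were -0.11 (-0.36 to 0.14) and -0.02 (-0.24 to 0.21), and for Spink1 -0.03 (-0.25 to 0.20) and -0.06 (-0.27 to 0.14). At the lower counts of Cubn the intervals were wider, -0.11 (-0.61 to 0.39) and -0.03 (-0.49 to 0.42). Between the fractions, a different effect of constant against withdrawn inducers was called for 0 genes of the list by either tool. By edgeR it was called for 0% of all genes. At an unadjusted p under 0.05 edgeR gave 1, Gpc3 (log2 difference -0.84 ± 0.30, adjusted p = 0.363), and DESeq2 also gave 1.

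At day 0 induced stem cells were compared with uninduced ones. The counts of higher genes were no larger than the share of all genes would give, and most of the lower genes follow the hepatocyte genes. In C1M against C1, 4 of the 33 genes were higher (Amn, Dab2, Ctsl and Gpc3) and 7 lower, against 26.3% of all genes called (14.3% higher and 12% lower). In C1H against C1, 3 were higher (Amn, Ctsl and Gpc3) and 6 lower, against 25.9% (13.8% and 12.1%), and without C1 replicate 3 the total fell from 9 to 4. Amn was at 2.69 ± 0.8 CPM in C1, 6.11 ± 2.26 in C1M and 6.03 ± 1.17 in C1H, a log2 fold change of 1.14 ± 0.38 and 1.15 ± 0.38 (adjusted p = 0.0178 and 0.0165). Dab2 was at 6.59 ± 2.72, 15.7 ± 5.65 and 13.4 ± 2.66 CPM (adjusted p = 0.0116 in C1M and 0.0554 in C1H).

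Ctsl was higher at day 0 by 0.73 ± 0.08 in C1M and 0.54 ± 0.08 in C1H on the log2 scale (adjusted p = 2.1e-13 and 3.1e-08), with no overlap of C1. The lower genes in C1M were Apoe, Apom and 5 of the 6 that follow the hepatocyte genes, and those in C1H were Apoe, Apom and 4 of the 6. The hepatocyte sum was itself 1620 and 1650 CPM in C1M and C1H against 2490 in C1, and with it in the fit 3 genes in C1M and 4 in C1H were called. Amn then stood at 1.09 ± 0.41 in C1M and 1.10 ± 0.41 in C1H, little moved in value and not called (adjusted p = 0.054 and 0.0507). Apoe went from -0.40 ± 0.11 to -0.11 ± 0.08 in C1M (adjusted p = 0.401) and from -0.60 ± 0.11 to -0.32 ± 0.08 in C1H, where it was still called (0.0022). Apom went from -0.73 ± 0.24 to -0.17 ± 0.29 in C1M and was called in neither (adjusted p = 0.752 and 0.802).

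Over the 4 days without dox (C1T against C1) 5 genes were higher and 3 lower, against 49.3% of all genes called (24.4% higher and 24.9% lower). The higher genes were Lrp2, Podxl, Cldn6, Gpc3 and Lhx1, and the lower genes Apoe, Ctsl and Krt8. In cells sorted for mCherry the same interval gave 28 higher and 0 lower in C1MV against C1M (45.9% of all genes called, 22% higher and 23.9% lower) and 19 and 1 in C1MDT against C1M (52.4%, 24.5% and 27.9%). It gave 27 and 1 in C1HV against C1H (47%, 22% and 25.1%) and 21 and 0 in C1HDT against C1H (55.7%, 26.3% and 29.4%). Without the 6 genes that follow the hepatocyte genes, the totals were 22, 20, 23 and 21. With the hepatocyte sum in the fit they were 19, 20, 20 and 22 in the same order. The hepatocyte sum was 2640 CPM in C1MV and 2560 in C1HV against 1620 and 1650 in C1M and C1H.

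Regulators and markers of other tissues were read beside the list to set extraembryonic against definitive endoderm. Of 8 transcription factors that both kinds of endoderm use, 5 were higher and 0 lower than in C1T in each of the 4 induced groups. Gata6 rose from 2.95 ± 1.15 CPM in C1T to 32.1 ± 4.74, 44.6 ± 4.83, 32.2 ± 4.16 and 39.4 ± 4.31 in C1MV, C1MDT, C1HV and C1HDT. Gata4 rose from 2.22 ± 2.11 to 21.3 ± 5.59, 24.5 ± 2.22, 19.4 ± 5.4 and 28.9 ± 2.12 CPM in the order given, and Foxa2 from 2 ± 0.956 to 21.2 ± 2.62, 33 ± 2.47, 24.5 ± 3.68 and 33.5 ± 6.03 CPM in that order. Sox17 was at the floor in C1T and at least 11.2-, 13.4-, 8.3- and 14.8-fold higher in that order. Hnf4a, a nuclear receptor that drives apolipoprotein genes in visceral endoderm and liver, was called in none, with means of 5.24 ± 2.48 CPM in C1T and 3.51 ± 1.35 to 7.09 ± 1.81 in the induced groups.

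Of 11 further parietal endoderm genes 10 were higher than in C1T in each induced group. In C1T itself 7 of the 11 were lower and 1 higher than in C1, against 24.9% and 24.4% of all genes. Against their own day 0 cells (C1M or C1H) each of the 4 induced groups had 7 higher and 3 lower. In those 4 comparisons 22% to 26.3% of all genes were higher and 23.9% to 29.4% lower. The other, Fst, named after its values were seen, was lower in C1MV, C1MDT and C1HDT. Sparc, a secreted matrix protein, was at 218 ± 19.4 CPM in C1T and at 2260 ± 196, 3250 ± 219, 2150 ± 77.3 and 3240 ± 310 in C1MV, C1MDT, C1HV and C1HDT, but it was also at 1330 ± 132 in undifferentiated C1. Col4a1, a basement membrane collagen, was at 30.4 ± 4.16 CPM in C1T and 24.6 ± 2.03 in C1, and at 388 ± 59.8, 588 ± 23.4, 382 ± 18 and 553 ± 56.9 in C1MV, C1MDT, C1HV and C1HDT. Sox7, a factor of primitive and parietal endoderm, was at the floor in C1T and at 4.21 ± 1.84, 3.12 ± 1.09, 5.11 ± 1.41 and 3.88 ± 0.862 CPM in C1MV, C1MDT, C1HV and C1HDT, at least 2.77-, 2.06-, 3.37- and 2.56-fold higher (adjusted p from 4.5e-07 to 4.8e-05).

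Of 12 definitive endoderm and gut genes 7 could be tested, and 0, 1, 0 and 3 were higher and 1, 0, 0 and 0 lower than in C1T in C1MV, C1MDT, C1HV and C1HDT. Of all genes, 15.3%, 16.9%, 13.7% and 17.4% were higher and 14.9%, 16.5%, 14.3% and 16.1% lower. Those higher were Trh in both constant groups and Gsc and Pyy in C1HDT. Trh, a hormone gene of early definitive endoderm, was already at 41.4 ± 4.34 CPM in C1T, and at 50.1 ± 14.1, 58.3 ± 11.7, 49.2 ± 11.9 and 64.2 ± 15.2 in C1MV, C1MDT, C1HV and C1HDT (adjusted p = 0.0312 in C1MDT and 0.00293 in C1HDT). Gsc, an organizer gene, was at 9.55 ± 3.34 CPM in C1 and at 0.119 to 1.34 at day 4, and Pyy, a gut hormone, had at most 3 counts in each library of day 4. Prom1 was lower in C1MV, at 10.6 ± 5.12 CPM against 20.7 ± 1.63 in C1T (adjusted p = 0.0343). Nepn, a marker of the midgut, had no count in any library, Cer1, made by anterior visceral and definitive endoderm, had at most 3 counts in any, and T, the primitive streak factor brachyury, had at most 3.

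**Figure D5:**
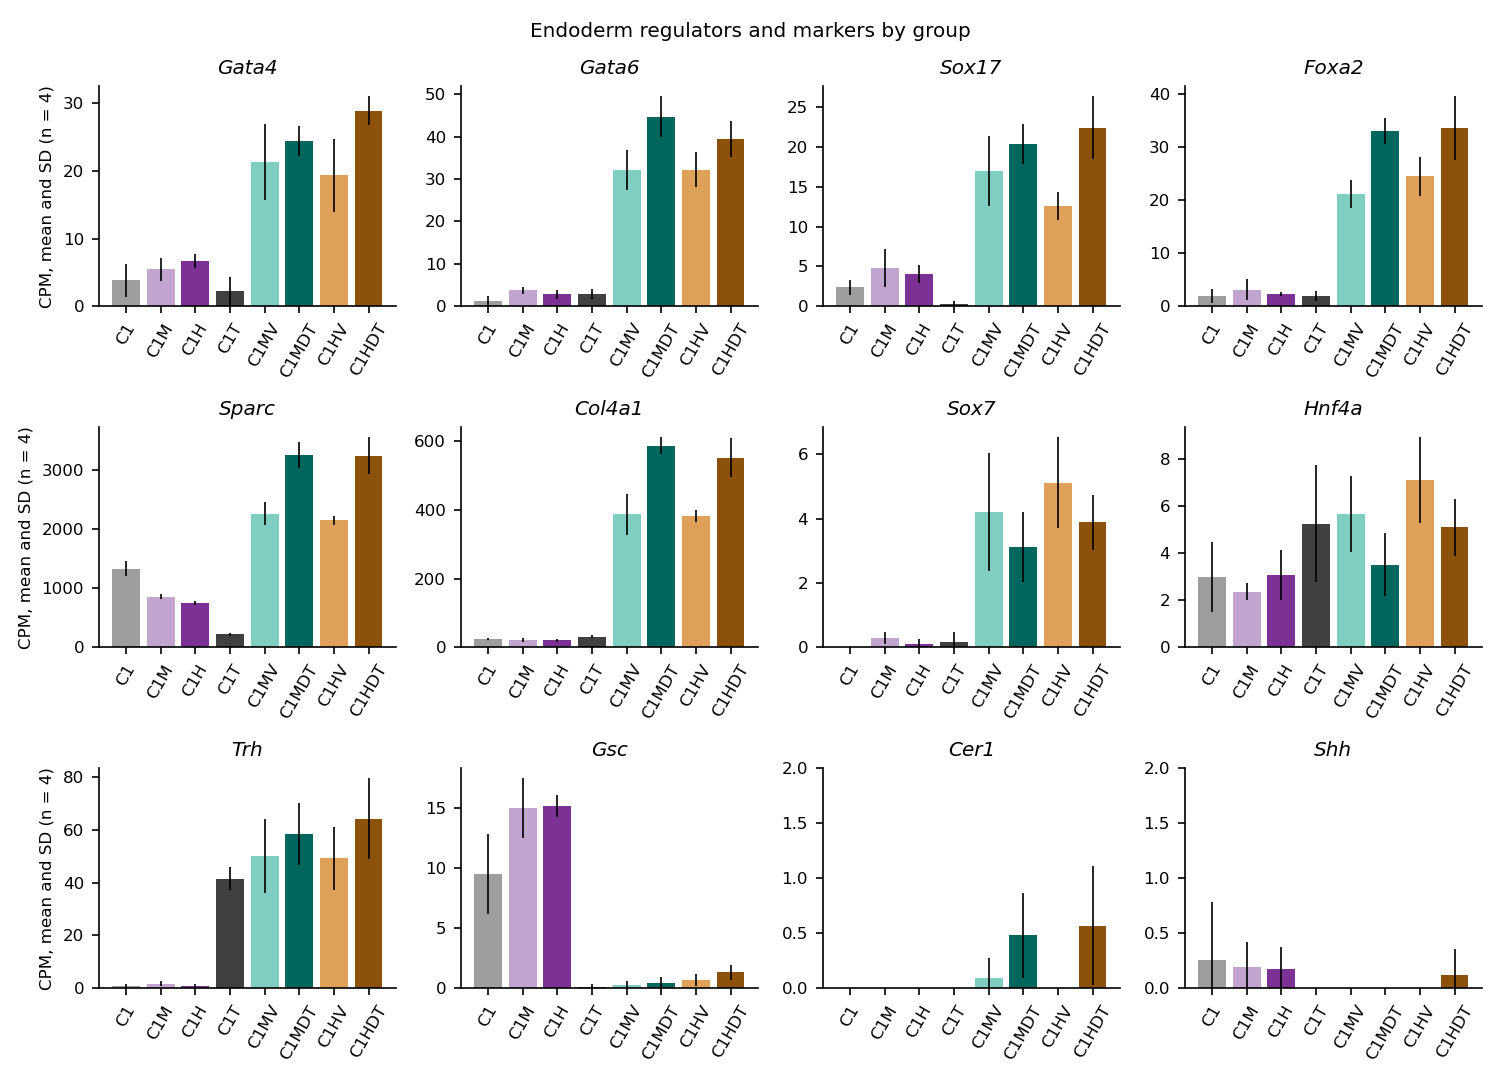
Mean level (CPM, bars from 0, error bars SD, n = 4 libraries) of 12 endoderm regulators and markers in the 8 groups. Gata4, Gata6, Sox17, Foxa2, Col4a1 and Sox7 are high in the 4 induced groups of day 4, Trh in all 5 groups of day 4, and Gsc at day 0, while Cer1 and Shh stay below 1 CPM on average.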

How the data were processed

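The deposited values are whole-number unique counts per gene from 32 QuantSeq 3′ libraries. Reads had been trimmed by the authors, mapped with STAR against mm10, and summed per gene by htseq-count. Whether reads were assigned by strand is not stated in the sources used here. Summary rows that name no gene were left out (no feature 10.1% to 23.1% of unique reads). Counts were fitted as deposited with edgeR 4.0.16 in R 4.3.3 (quasi-likelihood, TMM, one fit of 8 groups over 32 libraries), with 15280 genes at CPM of at least 1 in at least 4 libraries, Benjamini-Hochberg adjustment over all of them and a threshold of 0.05. Levels are TMM-scaled CPM. SE is the log2 fold change divided by the square root of F, and intervals span 2 SE. The floor is 3 counts (0.822 to 2.19 CPM by library) and covers counting error only. DESeq2 1.42.0, RLE and library-size scaling, no filter and a filter on all libraries, each library left out, the replicate number as a block and fits of only the groups compared were alternatives. On data simulated for C1MDT against C1T the edgeR and DESeq2 scripts were tested. Replicates of a group differed by more than sampling noise, and the labels call them biological replicates without saying what was separate, so p-values measure the spread between these libraries. The rule for names was all 35 genes, the 2 most abundant of each context list and a set of endoderm markers, and 6 of the context genes it gives have no values in the text, while Lgmn, Tmprss2, Fst, the lower visceral endoderm genes and the hepatocyte genes were named after their values were seen. One of the context lists is not reported here. Members and lists were chosen with earlier results of these data known. Coordinates are GRCm38, and gene models that overlap were read from GENCODE M21.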

Additional observations from a re-analysis of the deposited data

Results flagged for a closer look

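In 9 of the 224 sets of 4 libraries (1 gene in 1 group), the highest or lowest library stood apart from the other 3 by more than Dixon's critical value for its range. Chance alone gives about 1 such set in 20. In the C1M group, Amn was at 9.49 CPM in replicate 4 against 4.89 to 5.09 in the others, and Slc39a8 at 1.30 CPM in replicate 3, which is 4 counts against 1 in each of the others. In C1, Ttr was at 197 CPM in replicate 2 against 152 to 158. In C1T, Trf was at 308 CPM in replicate 4 against 164 to 180, in the library that also had the highest hepatocyte sum. In C1H, Cldn6 was at 2.93 CPM in replicate 3 against 1.02 to 1.26. At day 4 Ctsl was at 229 CPM in C1MV replicate 1 against 272 to 281, Spink1 at 154 CPM in C1HV replicate 1 against 130 to 133, Ihh at 11.5 CPM in C1MDT replicate 1 against 6.70 to 7.37, and Lhx1 at 4.13 CPM in C1MDT replicate 4 against 8.65 to 8.85.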

How the results depend on the processing

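The rise of the list against C1T kept its count within 1 gene under RLE and library-size scaling, DESeq2, no filter and the replicate block (20, 25, 20 or 21, and 25 or 26 genes called in either direction). A filter of CPM of at least 1 in all libraries removes a gene that is below 1 CPM in any library. It left 9, 13, 9 and 14 called in C1MV, C1MDT, C1HV and C1HDT against C1T. It left 16, 9, 14 and 9 in C1MV and C1MDT against C1M and C1HV and C1HDT against C1H, and 4 in C1T against C1. With only the groups compared in the fit, 15 genes were called for C1HDT against C1HV (9 in the fit of all groups) and 1 for C1H against C1M, while 21 and 22 were called in C1MDT and C1HDT against C1T (25 and 26 in the fit of all groups). With the hepatocyte sum as a term (added after seeing the data), 3 and 4 genes were called for C1M and C1H against C1, 7 for C1MDT against C1MV and 8 for constant against withdrawn inducers. Without the 6 genes that follow that sum, 6 and 5 were called for C1M and C1H against C1. The direction reversed only with that term, where none was called. Against C1T the log2 values in C1MDT and C1HDT became 0.14 and 0.09 for Apoa4, 0.12 and 0.03 for Apob, 0.01 and 0.04 for Apoh and 0.07 and 0.04 for Ttr. For constant against withdrawn inducers they became 0.00 for Apoa1, 0.01 for Apoa4, 0.04 for Apoh, 0.13 for Ttr and 0.01 for Trf. The near-fixed ratio of these genes to the sum nearly set values near 0 in advance, and the cause of these shifts was not tested. Leaving out each library in turn gave 4 to 11 genes for C1H against C1 and 0 to 1 for C1H against C1M. The ranges against C1T were 20 to 21, 24 to 25, 20 to 21 and 21 to 26. Same-numbered libraries of different groups did not deviate together (mean r -0.0016), and 0 pairs of groups had a mean r over 0.1, so the numbers pair nothing. With the replicate block 20, 25, 20 and 26 genes were called against C1T, 19 between constant and withdrawn inducers, 8 for C1H against C1 and 27 for C1HV against C1H (9 and 28 without it), and no call of a listed gene against C1T or between constant and withdrawn inducers was lost. Depth limits the genes near 3 counts, Afp, Thbd, Apoc2, Cxcr4, Krt19 and Plat.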

Other observations

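Genes of other lineages were counted in the same comparisons with C1T, in which 13.7% to 17.4% of all genes were higher and 14.3% to 16.5% lower. Many of the counts of single lists are near these shares and are given as counts only. Of 8 naive pluripotency genes, 7 were higher and 0 lower in both C1MV and C1HV, and 0 were higher with 4 and 3 lower in C1MDT and C1HDT. Tfcp2l1, a factor of the naive state, was at 64.5 ± 8.65 CPM in C1T, 129 ± 10.1 in C1MV and 52.1 ± 5.8 in C1MDT. Of 8 neural ectoderm genes, 1, 4, 2 and 5 were higher and 2, 1, 2 and 1 lower in C1MV, C1MDT, C1HV and C1HDT. Sox1 was at 92.3 ± 10.8 CPM in C1T and 89.3 ± 3.85, 165 ± 9.26, 93.3 ± 8.88 and 143 ± 15.4 in C1MV, C1MDT, C1HV and C1HDT, and Sox11 at 270 ± 38.1 and 236 ± 19.2, 420 ± 32.7, 290 ± 26.2 and 390 ± 27.9. Both are factors of neural progenitors.

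Of 10 primitive streak genes 6 could be tested. In C1MV, C1MDT, C1HV and C1HDT 0, 0, 1 and 0 were higher and 1 was lower in each, Wnt3 in all 4. Of 11 trophoblast genes 8 could be tested, with 3, 2, 2 and 2 higher and 0, 1, 0 and 0 lower. Of 10 blood and endothelium genes 8 could be tested, with 1, 2, 1 and 1 higher and 1, 1, 0 and 1 lower. Of 13 genes of lipoprotein assembly and turnover, 5, 7, 6 and 7 were higher and 0, 1, 0 and 1 lower. In this last list P4hb, a subunit of the lipid transfer complex that loads apolipoprotein B, was at 193 ± 9.01 CPM in C1T and 287 ± 28.9, 371 ± 9.24, 255 ± 26.8 and 369 ± 39.5 in C1MV, C1MDT, C1HV and C1HDT.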
